A study of Mus musculus with 6 samples.

Results

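The odorant receptors described here are the 64 genes from Olfr992 to Olfr1126 that had a transcript cluster of their own on the array, out of 16661 clusters tested. They were chosen by a rule on names, as single-gene clusters whose annotated symbol runs from Olfr987 to Olfr1140, without pseudogene symbols. The rule was set with earlier results of these data known. All 64 matched a gene of chromosome 2 in a GRCm38.p6 gene table, where 63 are protein coding and Olfr1010 is a transcribed pseudogene. RNA came from olfactory epithelium, which holds the odour-sensing neurons of the nose, dissected from mouse embryos at ED18.5. The 3 wildtype arrays were homozygous for the wildtype Emx2 allele and the 3 arrays labelled knockout were Emx2 knockout, with no other allele, strain or treatment named in the labels. RNA of 3 animals was combined in equal amounts for each array, which makes 9 animals per genotype, and the labels do not say how the allele was made or which sexes were pooled.

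Odorant receptors are G protein-coupled receptors of the olfactory sensory neurons, and each mature neuron is thought to express a single receptor gene, from one allele. Odorant binding activates the G protein subunit encoded by Gnal, then the adenylyl cyclase Adcy3, and the cyclic AMP produced opens a channel that contains Cnga2. The genes lie in clusters on many chromosomes, and those on this stretch of chromosome 2 belong to class II, the larger class of mammalian receptors. Emx2 encodes a homeodomain transcription factor, and homeodomain sites and sites for the Ebf factors are known features of receptor promoters. The ligands of the single receptors are not stated here, and their shared role is the detection of odorants.

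Upstream sequence is shown for 6 receptors whose gene model starts ahead of the coding sequence, 3 that fell and 3 that did not pass the test, because a homeodomain factor is the gene targeted in the study. RefSeq windows of GRCm38.p6 were found for 46 of the 64 genes, and 34 of these begin at an ATG, so that they lie ahead of the start codon and not ahead of a known transcript start. The bases run 5′ to 3′ on the gene's strand and end at the base before the annotated start, and capitals mark TAATNA, the core bound by many homeodomain proteins, read on either strand.
Olfr1110: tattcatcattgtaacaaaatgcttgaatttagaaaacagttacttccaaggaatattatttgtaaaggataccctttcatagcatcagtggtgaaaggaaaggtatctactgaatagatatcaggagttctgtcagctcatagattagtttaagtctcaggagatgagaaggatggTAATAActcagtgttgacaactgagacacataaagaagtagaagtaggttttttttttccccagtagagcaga
Olfr1015: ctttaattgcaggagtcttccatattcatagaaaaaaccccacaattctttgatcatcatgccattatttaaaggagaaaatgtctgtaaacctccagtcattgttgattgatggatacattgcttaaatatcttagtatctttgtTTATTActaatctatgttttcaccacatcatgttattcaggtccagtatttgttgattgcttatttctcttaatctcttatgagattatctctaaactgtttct
Olfr1102: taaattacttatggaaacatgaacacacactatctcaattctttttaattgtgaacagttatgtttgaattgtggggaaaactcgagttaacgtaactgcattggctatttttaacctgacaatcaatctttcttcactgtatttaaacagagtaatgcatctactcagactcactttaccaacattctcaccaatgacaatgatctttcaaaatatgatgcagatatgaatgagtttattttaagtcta
Olfr1030: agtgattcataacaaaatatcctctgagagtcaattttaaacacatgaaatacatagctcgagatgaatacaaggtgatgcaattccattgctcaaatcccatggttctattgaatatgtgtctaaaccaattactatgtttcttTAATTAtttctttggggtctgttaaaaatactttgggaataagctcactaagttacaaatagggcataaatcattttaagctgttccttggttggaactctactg
Olfr1006: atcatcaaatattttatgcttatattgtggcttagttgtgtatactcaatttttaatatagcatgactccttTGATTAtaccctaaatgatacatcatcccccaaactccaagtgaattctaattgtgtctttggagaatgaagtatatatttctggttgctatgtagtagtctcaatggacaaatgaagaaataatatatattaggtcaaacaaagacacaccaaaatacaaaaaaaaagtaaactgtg
Olfr998: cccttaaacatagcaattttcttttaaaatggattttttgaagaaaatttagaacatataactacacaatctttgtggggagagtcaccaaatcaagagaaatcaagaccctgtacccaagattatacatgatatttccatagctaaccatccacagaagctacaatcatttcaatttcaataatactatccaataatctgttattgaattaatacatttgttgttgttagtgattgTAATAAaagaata
In order, these windows are chr2:87140234-87140483 on the minus strand, chr2:85785224-85785473, chr2:87001682-87001931 and chr2:85979062-85979311 on the plus strand, chr2:85678742-85678991 on the minus strand and chr2:85590260-85590509 on the plus strand. The window of Olfr1102 holds no match. The others hold 1 each, which begins 73 bases before the annotated start in Olfr1110, 104 in Olfr1015, 105 in Olfr1030, 178 in Olfr1006 and 13 in Olfr998. Of all 12 windows that do not begin at an ATG, 7 hold a match.

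The core was about as frequent among the receptors that fell as among the rest. TAATNA was found in the 250 bases of 6 of 10 receptors that fell and of 23 of 36 that did not pass the test. Over all 46 windows the share was 63.0%, against 63.6% of 550 windows of other odorant receptors and 24.3% of all 32851 promoter windows of the same length. The palindrome TAATTA, every copy of which is also a TAATNA match, was present in 7 of the 46 windows, or 15.2%, against 17.8% of the other receptors' windows and 4.84% of all windows. TCCC and GGGA separated by any 2 bases, a core of the sites bound by Ebf proteins and its own reverse complement, were found in 0 of the 46, in 3 of the 550 and in 0.779% of all windows. A match describes letters in the window, and a missing match says only that these letters are not in it.

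Values are log2 RMA signals, 1 per transcript cluster and array, so a difference of -1 is a 2-fold lower signal. Over all clusters, medians ran from 7.64 to 7.73 on the 6 arrays, whose small number limits the precision. The targeted gene, Emx2, read 8.44 ± 0.13 (SD, n = 3) in the wildtype group, and the group labelled knockout read 8.37 ± 0.03 (SD, n = 3; limma adjusted p = 0.894). No source used here says whether its probes lie outside the deleted part, the value therefore does not check the labels, and every direction rests on them. Omp, the standard marker of mature olfactory neurons, was at 12.24 and 11.39 in the wildtype and knockout-labelled group means, so the tissue carried its defining cell type. The mean of the 2 measured Y-linked genes was 3.62 to 3.83 in wildtype replicates 1 and 3 and knockout replicate 1, and 6.96 to 8.08 in the other arrays, so the pools differed in the sex of the embryos.

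Receptors of this stretch were lower in the arrays labelled knockout almost throughout. Of the 64, 62 had a negative difference, 15 fell and 0 rose (limma, adjusted p at or under 0.05 over all 16661 clusters). A negative difference was measured for 61.6% of all clusters, and the same test called 1.9% of them lower and 0.144% higher. The 2 positive differences had unadjusted p above 0.05, and 47 of the 64 had an unadjusted p under 0.05, against 10.1% of all clusters. All 47 were negative, against 8.33% of all clusters negative at that level. Ranked by log2 difference, the receptors had a median of -0.79, and the quartiles were -1.14 and -0.49, against a median of -0.04 over all clusters tested. The 15 that fell had differences from -3.71 to -0.74.

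All 3 arrays labelled knockout lay under all 3 wildtype arrays for 43 of the 64 receptors, and the reverse held for 0. Over all clusters these shares were 12% and 3.51%. A difference of at least 2-fold was measured for 24 receptors, 12 of them among those that fell, while 2.02% of all clusters were lower by that much. Without knockout replicate 1, 8 receptors were called lower, 7 of them among the 15, and without knockout replicate 3, 7 were, 6 of them among the 15. Without knockout replicate 2, 8 were called lower, all among the 15. Lower receptor signal in dissected tissue can come from fewer neurons that express the gene or from less RNA in each, and these cannot be told apart here. Most were dim, with a mean signal above the 25th percentile of the array in only 6 of the 64. Probes of one receptor can also bind the RNA of a close relative, so the value of a single receptor is uncertain.

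**Figure D1:**
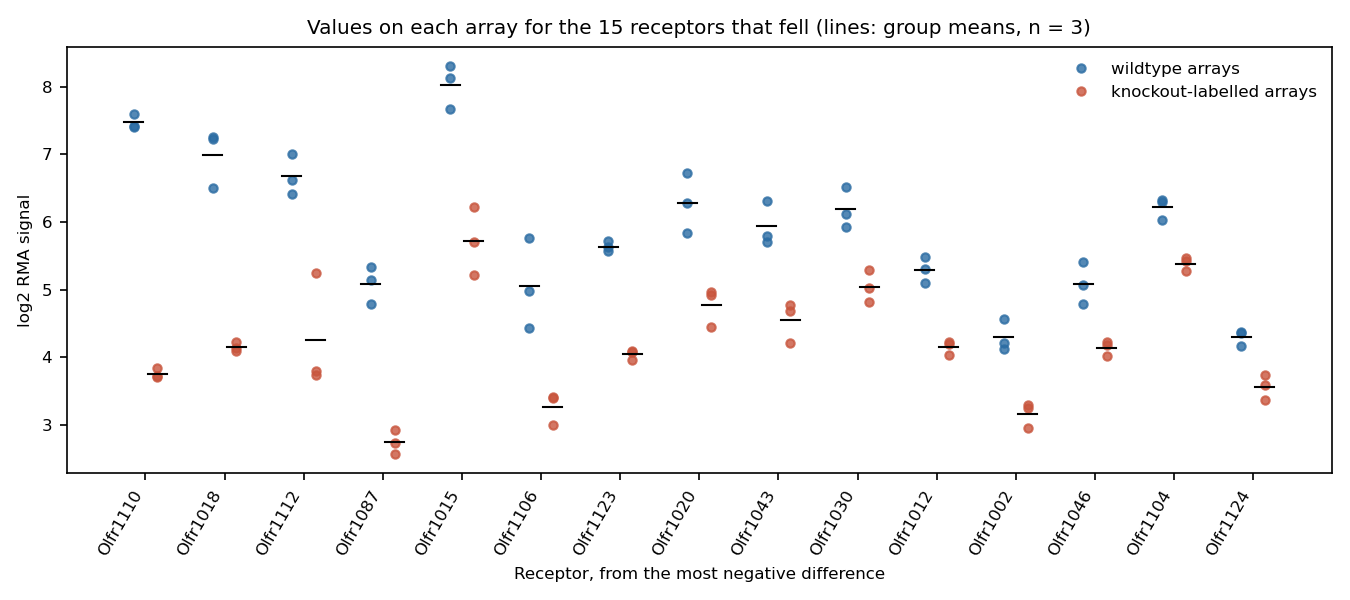
Log2 RMA signal on each array (y axis) for the 15 receptors that fell (x axis, from the most negative difference), with wildtype arrays in blue, arrays labelled knockout in red and group means of 3 arrays as lines. In each of the 15 the highest array labelled knockout lies under the lowest wildtype array, and the gap is widest for Olfr1110.

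Olfr1110, a receptor of family MOR172, showed the most negative difference of the 64. Its wildtype arrays read 7.59, 7.40 and 7.42, and the arrays labelled knockout 3.85, 3.70 and 3.72. The groups were tight and far apart, with SDs of 0.11 and 0.08. The log2 difference was -3.71 (SE 0.09; limma adjusted p = 3.26e-05), a 13.1-fold lower signal. It passed the test with each of the 6 arrays left out in turn, with an adjusted p of at most 0.00132. Its upstream window is the first of those shown above.

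Olfr1018, of family MOR260, followed with wildtype arrays at 6.51, 7.23 and 7.25 and arrays labelled knockout at 4.23, 4.10 and 4.14. Wildtype replicate 1 lay below the other wildtype arrays but well above the arrays labelled knockout, which differed little among themselves. The log2 difference was -2.84 (SE 0.20; limma adjusted p = 0.00215), or 7.16-fold. Olfr1087, of family MOR188, read 5.15, 5.33 and 4.78 in wildtype arrays and 2.58, 2.74 and 2.93 in those labelled knockout. The groups stood well apart, and the difference was -2.34 (SE 0.16; limma adjusted p = 0.0021). Both passed with any 1 array left out.

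Olfr1015, of family MOR213, was at 7.67, 8.30 and 8.12 in wildtype arrays and at 5.70, 6.23 and 5.22 in those labelled knockout. Its spread among the knockout-labelled arrays, an SD of 0.51, was wider than that of Olfr1110 or Olfr1018, and the groups still did not overlap. The difference of -2.32 (SE 0.27; limma adjusted p = 0.0100) passed with any 1 array left out, narrowly without knockout replicate 1 (adjusted p = 0.0499). Olfr1012 of the same family was at 5.30, 5.10 and 5.49 against 4.19, 4.04 and 4.23. Its difference was smaller, at -1.15 (SE 0.12; limma adjusted p = 0.00749), again with every left-out array passing.

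Olfr1123, of family MOR264, combined a moderate difference with small spread. The wildtype arrays read 5.63, 5.56 and 5.72 and the arrays labelled knockout 4.09, 4.10 and 3.97, with SDs of 0.08 and 0.07. Its difference was -1.59 (SE 0.09; limma adjusted p = 0.00111), and it passed with any 1 array left out. Olfr1112 of the same family had a more negative difference, -2.42, with a larger SE of 0.40 (limma adjusted p = 0.0355). Its arrays labelled knockout were split, with replicate 1 at 5.25 and the others at 3.80 and 3.74, against wildtype values of 6.62, 6.42 and 7.001. Olfr1112 lost the call in 5 of the 6 fits with an array removed (adjusted p up to 0.127, without knockout replicate 3).

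The other receptors that fell had differences from -1.79 to -0.74. Olfr1106 of family MOR172 was at 4.44, 4.98 and 5.77 against 3.00, 3.40 and 3.42, a difference of -1.79 (limma adjusted p = 0.0459), with wildtype replicate 3 the highest. Olfr1020 of family MOR201 was at 6.72, 6.28 and 5.84 against 4.96, 4.44 and 4.92, a difference of -1.50 (limma adjusted p = 0.0313). In both, the wildtype arrays spread more widely than those labelled knockout, and the groups did not overlap. Olfr1043 of family MOR185 was at 5.79, 5.71 and 6.32 against 4.21, 4.78 and 4.69 (difference -1.38; limma adjusted p = 0.0256). Olfr1030 of family MOR196, whose window above holds the palindrome TAATTA, was at 5.93, 6.12 and 6.52 against 5.03, 4.82 and 5.29 (difference -1.15; limma adjusted p = 0.0291). Wildtype replicate 3 was the highest array for both. Olfr1002 of family MOR175 was at 4.12, 4.21 and 4.56 against 3.29, 3.25 and 2.96 (difference -1.13; limma adjusted p = 0.0147).

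The smallest differences among the receptors that fell belonged to Olfr1046, Olfr1104 and Olfr1124. Olfr1046 of family MOR194 was at 5.41, 4.79 and 5.07 against 4.22, 4.03 and 4.19 (difference -0.94; limma adjusted p = 0.0382). Olfr1104 of family MOR207 was at 6.32, 6.30 and 6.02 against 5.47, 5.43 and 5.27 (difference -0.83; limma adjusted p = 0.0167). Olfr1124, next to Olfr1123 and of the same family, was at 4.38, 4.17 and 4.36 against 3.59, 3.73 and 3.37 (difference -0.74; limma adjusted p = 0.0310). None of these 3 was lower by 2-fold, and in each every array labelled knockout lay below every wildtype array.

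When arrays were removed one at a time, Olfr1106 lost its call in 4 of the 6 fits (limma adjusted p up to 0.172, without knockout replicate 1) and Olfr1002 in 2 (up to 0.0588, without knockout replicate 3). Calls were lost in 5 of the 6 fits for Olfr1020 (up to 0.0984, without wildtype replicate 2), Olfr1030 (0.120) and Olfr1124 (0.119, both without knockout replicate 1). The same number of fits lost the call of Olfr1043 (0.0844), Olfr1046 (0.134) and Olfr1104 (0.0733), all highest without knockout replicate 3. The 6 receptors called in every such fit were Olfr1110, Olfr1018, Olfr1087, Olfr1123, Olfr1012 and Olfr1015.

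Several receptors had large differences that did not pass the test, with wider spread between arrays. Olfr994 of family MOR203 read 5.65, 5.60 and 7.26 in wildtype arrays and 3.93, 2.92 and 4.04 in those labelled knockout. The groups did not overlap, wildtype replicate 3 stood above the other wildtype arrays, and the difference was -2.54 (SE 0.50; limma adjusted p = 0.0654). Olfr1102 of family MOR179 was at 6.52, 5.84 and 6.51 against 4.37, 4.72 and 5.58, with a difference of -1.40 (limma adjusted p = 0.121). Olfr1052 of family MOR172 was at 5.98, 6.67 and 6.61 against 4.67, 5.54 and 5.79, with a difference of -1.09 (limma adjusted p = 0.236). In both, the highest array labelled knockout came close to the lowest wildtype array without reaching it. Olfr1102 passed without knockout replicate 3 (adjusted p = 0.0479). Olfr1044 of family MOR185 was at 7.14, 6.75 and 7.40 against 6.51, 5.37 and 6.02, with a difference of -1.13 (limma adjusted p = 0.175). Among the 12 receptors that were at least 2-fold lower without passing, the groups overlapped only for Olfr1109 and Olfr1126. The widest spread among wildtype arrays was that of Olfr1126, with an SD of 1.08 and values of 2.97, 4.37 and 5.09, and these overlapped the 3.31, 2.86 and 2.80 of the arrays labelled knockout (difference -1.15; limma adjusted p = 0.505).

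A few receptors showed little or no difference, and for some the interval limits how large a fall in signal they could have had. Olfr1122, of family MOR264, was at 6.35, 6.25 and 5.90 in wildtype arrays and at 5.80, 6.74 and 6.42 in those labelled knockout. The groups overlapped, and the difference of 0.16 had a 95% interval from -0.43 to 0.74 (limma adjusted p = 0.920), which leaves out a 2-fold lower signal. It is the neighbour of Olfr1123 in gene order and belongs to the same family. Olfr1061, of family MOR188, read 2.29, 2.47 and 2.07 against 2.57, 2.25 and 2.07. The groups overlapped, and the difference was 0.02 with an interval from -0.36 to 0.40.

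Olfr1086 at -0.22 (interval -0.53 to 0.09), Olfr1121 at -0.22 (-0.53 to 0.09), Olfr998 at -0.22 (-0.77 to 0.33) and Olfr993 at -0.27 (-0.79 to 0.25) also had intervals that included 0 and left out -1. Olfr1006, whose wildtype arrays read 7.94, 8.59 and 8.52, stood at 7.82, 8.04 and 8.20 in the arrays labelled knockout. Its groups overlapped, with a difference of -0.33 (limma adjusted p = 0.690; interval -0.79 to 0.12). In all, the interval lay wholly above -1 for 18 receptors and wholly below it for 8, the latter being Olfr994 and 7 of those that fell. For the other 38 the data did not place the difference on one side of 2-fold. Some of the 18 were dim in wildtype arrays too, such as Olfr1061 at a mean of 2.28 and Olfr1047 at 2.84. For these a fall in RNA might not lower the signal by as much. The median half-width of the intervals was 0.51.

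The differences varied along the chromosome, and some receptors next to each other among the 64 stood far apart. The 64 receptors were divided, in gene order, into 8 runs of 8. The median was most negative, at -1.29, in the run from Olfr1102 to Olfr1112, where 4 fell and 7 were at least 2-fold lower. It was least negative, at -0.43, in the run from Olfr992 to Olfr1008, where only Olfr1002 fell. From Olfr1054 to Olfr1079 no receptor passed (limma; 6 of 8 had an unadjusted p under 0.05), with a median of -0.80. The medians of the other runs lay between -0.83 and -0.60, with 1 to 3 receptors that fell in each.

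Gaps between neighbours ran from 0.04 to 2.70, and some of the widest are given here. Olfr1110, with an interval from -3.93 to -3.49, lies between Olfr1109 at -1.18 (interval -2.20 to -0.16) and Olfr1111 at -1.01 (-1.53 to -0.49). Olfr1018 at -2.84 is followed by Olfr1019 at -0.34, and Olfr1087 at -2.34 is preceded by Olfr1086 at -0.22. The intervals within these pairs do not overlap, and the differences between neighbours were not tested. Among receptors with a known strand in the promoter table, 5 of 21 on the plus strand and 5 of 25 on the minus strand fell, with medians of -0.74 and -0.94.

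**Figure D2:**
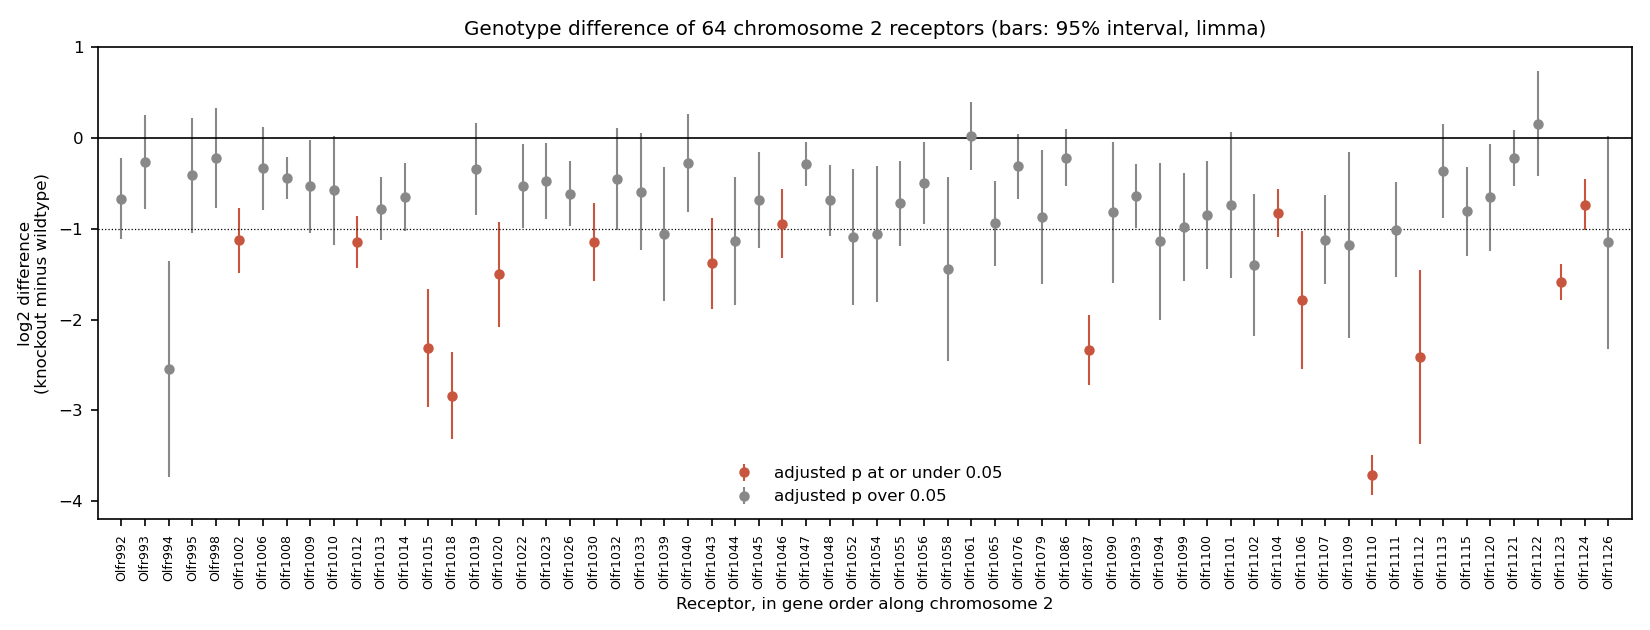
Log2 difference between arrays labelled knockout and wildtype arrays (y axis, points) with 95% intervals from limma (bars) for the 64 receptors in gene order along chromosome 2 (x axis, evenly spaced), with receptors that fell in red. The points scatter from 0.16 to -3.71, and Olfr1110 stands below all others, with neighbours near -1, the dotted line of a 2-fold lower signal.

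Receptors of one family resemble each other in sequence, and the families were read from the MOR numbers among the synonyms of the gene table. The 64 receptors fell into 21 families, of which 8 had at least 4 measured members and held 43 receptors. Each of these 8 families had a negative median, from -1.18 in MOR172 to -0.54 in MOR203. All 5 members of MOR172, which lie near each other except Olfr1052, were at least 2-fold lower, and Olfr1106 and Olfr1110 of them fell. Olfr1107 of the same family, with a difference of -1.12, missed the threshold (limma adjusted p = 0.0505). In MOR196 the receptors other than Olfr1030 lay close together, between -0.61 and -0.47, and Olfr1023 had the least negative difference.

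Other families were more mixed. The 9 receptors of MOR264 ranged from -2.42 for Olfr1112 to 0.16 for Olfr1122, with 3 that fell and a median of -0.74. The 6 of MOR213 ranged from -2.32 for Olfr1015 to -0.33 for Olfr1006, and their median was -0.71. The 5 of MOR188 ranged from -2.34 for Olfr1087 to 0.02 for Olfr1061. In MOR185 the range was -1.38 for Olfr1043 to -0.28 for Olfr1040. No receptor passed in MOR179 (limma; 3 of 5 had an unadjusted p under 0.05), where Olfr1086 lay at -0.22, or in MOR203 (2 of 4), where Olfr994 stood apart from the others, which were between -0.67 and -0.27. The 21 receptors of the 13 smaller families had a median of -0.83, and 5 of them fell.

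**Figure D3:**
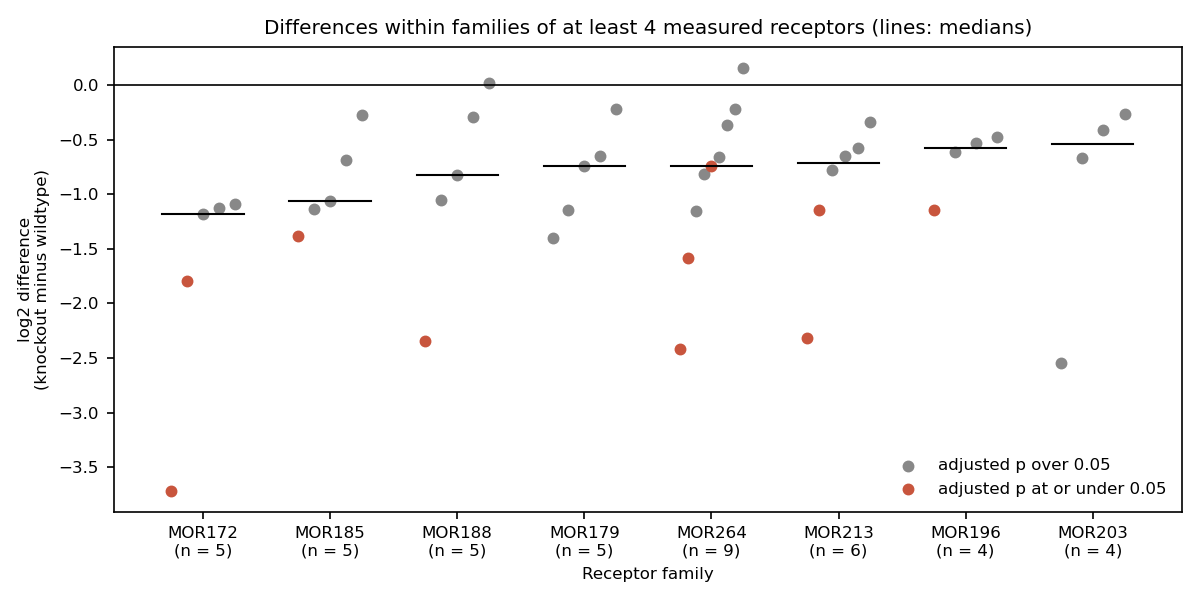
Log2 difference between arrays labelled knockout and wildtype arrays (y axis) of each receptor (points) in the 8 families with at least 4 measured members (x axis, ordered by median), with family medians as lines and receptors that fell in red. Every median is below 0, and MOR196 has the narrowest range, from -1.15 to -0.47.

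Odorant receptors outside this stretch were also lower, as the same fit showed. Over 648 clusters of other odorant receptors the median difference was -0.64 (quartiles -1.24 and -0.19), with 172 lower and 7 higher, and 92 had a positive difference. The shares called lower were 23.4% of the 64 and 26.5% of the others. In the next stretch of the same chromosome, from Olfr1141 to Olfr1271, 21 of 62 receptors fell, or 33.9%, and the median was -0.95. The mean over the 64 was 4.85, 4.82 and 5.02 in the wildtype arrays and 3.94, 3.93 and 3.99 in those labelled knockout. Its difference of -0.94 compares with -0.75 for the mean over the other receptors, and the difference between these was not tested.

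Wildtype replicate 3 gave the highest wildtype value for 28 of the 64 receptors, replicate 1 for 20 and replicate 2 for 16. Among the arrays labelled knockout the highest value was spread over replicates 1, 2 and 3 in 20, 21 and 23 receptors. The median SD over receptors was 0.33 in wildtype arrays and 0.24 in those labelled knockout.

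The receptors are carried by mature olfactory neurons, whose markers were lower in the same arrays. The mean over 16 of 19 listed markers that were measured was 9.12 to 9.39 in wildtype arrays and 8.55 to 8.77 in those labelled knockout, and each had a wildtype group mean of at least 6.46, the value of Cngb1. Of the 16, 14 had a negative difference, against 61.6% of all clusters. Among the 16, 4 fell, including the calcium-binding protein S100a5 at -2.29 and Umodl1 at -1.07. The marker mean differed by -0.67, with single markers from -2.29 to 0.04. Of the 64 receptors, 38 or 59.4% had a more negative difference than that mean, as did 48.0% of the other odorant receptors. The part of fewer or less mature neurons in the receptor values was not tested.

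Markers of the other cells of the dissected tissue were read in the same arrays. Immature neuron markers averaged 10.13 to 10.23 in wildtype arrays and 9.82 to 9.90 in those labelled knockout, and 2 of 10 fell, Gap43 at -0.52 and Trib3 at -0.83. Progenitor markers averaged 9.06 to 9.27 against 8.95 to 8.99, but they were mixed, with 6 negative and 4 positive differences. Their share of negative differences was close to the 61.6% of all clusters. Of the 10, 1 fell, the transcription factor Nhlh1, at -0.55. The positive ones were Sox2, Mki67, Kit and Top2a, from 0.05 to 0.17, and none of them passed. Sustentacular markers overlapped between groups, at 10.11 to 10.42 against 10.27 to 10.59. None of these 8 passed (limma; 2 had an unadjusted p under 0.05, Muc2 at 0.50 and Cyp1a2 at 0.74). Mesenchyme, cartilage and bone markers averaged 9.91 to 10.07 against 10.29 to 10.46, and all 13 were positive. None of the 13 passed (limma; 6 had an unadjusted p under 0.05, with Sp7 at 0.59 and Ibsp at 1.04). Their part in the receptor values was not tested.

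Over these lists 7 markers fell, and the count called lower was 1 without wildtype replicate 1, knockout replicate 1 or knockout replicate 3. It was 2 without wildtype replicate 3 and 4 without knockout replicate 2. A single marker was called higher when wildtype replicate 1 or 2 was left out.

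**Figure D4:**
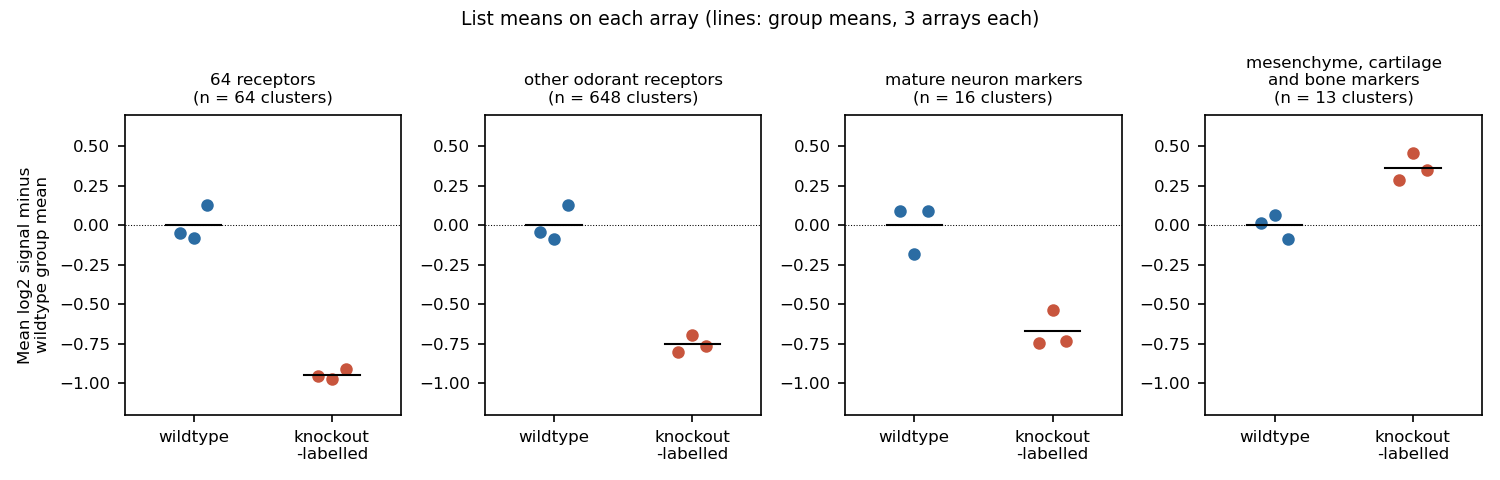
Mean log2 signal of each array minus the mean of the wildtype group (y axis) for the 64 receptors, 648 other odorant receptor clusters, 16 mature neuron markers and 13 mesenchyme, cartilage and bone markers (panels), with group means of 3 arrays as lines. The arrays of the genotypes do not overlap in any panel, and only the last panel is higher in the arrays labelled knockout.

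The genes that serve receptor signalling, transport and choice were examined as a further list. Gnal, Gng13, Adcy3, Cnga2, Cngb1, Ano2, Pde1c, Rtp1 and Rtp2 are also among the mature neuron markers, so these lists are not separate. Of 24 measured genes 21 had a negative difference, 2 fell and 0 rose (limma; 12 had an unadjusted p under 0.05, all negative), with a median of -0.21. Over all clusters 61.6% were negative, and 8.33% were negative with a limma unadjusted p under 0.05. The genes that fell were Ano2, the chloride channel that amplifies the odorant response, at -1.21 and Rtp2, a chaperone that brings receptors to the cell surface, at -1.09 (limma adjusted p = 0.0145 and 0.0249), both also counted among the mature neuron markers. The G protein subunit Gnal differed by -0.21, the cyclase Adcy3 by -0.48 and the channel subunit Cnga2 by -0.69, and none of these passed. None of the transcription factors of the list passed. Lhx2 was at -0.02, its cofactor Ldb1 at 0.04, Ebf1 at -0.11, Ebf2 at -0.03 and Ebf3 at -0.07. Larger differences were measured for Ebf4 at -0.35 and Atf5 at -0.37 (limma adjusted p = 0.260 and 0.360). For both, every array labelled knockout lay under every wildtype array. The same held for 12% of all clusters and for other genes of this list, such as Adcy3 and Cnga2. No gene of this list passed without knockout replicate 1, knockout replicate 3 or wildtype replicate 1, and 1 passed without wildtype replicate 3.

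The receptor differences were also read within pools of like Y-linked signal. Among the arrays with low signal, knockout replicate 1 against wildtype replicates 1 and 3, the median over the 64 receptors was -0.78 and 63 were negative. Among those with high signal, knockout replicates 2 and 3 against wildtype replicate 2, the median was -0.79 and 61 were negative. With 1 array on one side, neither comparison has a test of its own. With Y-linked signal as a covariate in the limma fit, 10 receptors were called lower and the median was -0.81. Of the 15, 8 were among these 10, and Olfr1020, Olfr1030, Olfr1043, Olfr1046, Olfr1104, Olfr1106 and Olfr1124 did not pass.

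Clusters that name several genes lie outside the 64, and 13 of them include a receptor numbered in the same range. Of these 13, 11 had a negative difference, against 61.6% of all clusters. Of the same 13, 1 fell and 0 rose, and the median was -0.58. The cluster that fell names Olfr1097 and Olfr1098 and was at 4.36, 3.87 and 3.88 in wildtype arrays and at 2.80, 3.08 and 3.13 in those labelled knockout. Its groups did not overlap, and the difference was -1.03 (limma adjusted p = 0.0287), while another cluster naming the same pair differed by -0.24 and did not pass. The cluster of Olfr153 and Olfr1131 had the most negative difference of the 13, at -1.60 (limma adjusted p = 0.0872). Such clusters cannot be assigned to one receptor.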

How the data were processed

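RNA from the pooled olfactory epithelium of 6 groups of 3 embryos was hybridised to 6 exon arrays, from 2.7 ug of total RNA each, per the labels' protocols. The deposited values are log2 signals, and per the submitters' processing notes the authors used Affymetrix Expression Console with RMA. RMA corrects background and normalizes quantiles between arrays, which assumes that most clusters do not change. Its version, annotation level and genome build are not given in those sources. Of 23238 rows, the 16661 tested were those with identifiers inside the numbering range of the platform annotation. The other 6577 were tested only as an alternative. Clusters naming 1 gene numbered 14939, several genes 989 and none 733.

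A linear model per cluster gave knockout minus wildtype (limma 3.58.1 under R 4.3.3, lmFit, then eBayes), and two-sided p-values were adjusted by Benjamini-Hochberg over all 16661 clusters, with a threshold of 0.05. Gene order, families and names came from the GRCm38.p6 table by Entrez identifier, for names, neighbours and synonyms only. Figures were drawn with matplotlib 3.10.9. The receptors, lists and tests were chosen with earlier results of these data known. Named receptors are the 12 most negative that fell, the 6 most positive, the 4 with the smallest p that passed, the 4 nearest 0 and the extremes of each family of at least 4, and in each list up to 4 that passed or the 2 with the smallest p. A part of this rule on protein identity was not used here. Other receptors were named after their values were seen. A listed gene with several clusters was read from the brightest.

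On simulated data with 16661 clusters and 3 and 3 arrays the fit found 48% of the 1.5-fold changes, 60% at 2-fold, 94% at 4-fold and 94% at 8-fold, and made 3 false calls. The changed clusters were drawn at random from all 16661, whereas most of the 64 receptors were dim. How many changes the fit would find among the receptors was therefore not measured. Pairs of arrays had correlations of 0.975 to 0.991 and at most 9 identical values, so each array was kept as 1 replicate. Only 6 of the 64 receptors had a mean above the 25th percentile of all clusters. The alternatives tried were scalings, dim clusters left out, all rows tested, an intensity trend, robust estimation, array weights, a replicate block, Y-linked signal as a covariate and each array left out.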

Additional observations from a re-analysis of the deposited data

How the results depend on the processing

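The direction of the median over the 64 receptors held under every alternative, and 0 receptors rose under any. The 15 receptors that fell became 7 with all rows tested, 9 with quantiles normalized over the annotated clusters and 1 with the filter on dim clusters, which leaves 6 of the 64, and 7 to 12 with 1 array left out. The median was -0.50 with that filter and -0.61 with that normalization. With array weights 19 receptors were called lower, 14 of them among the 15, and the median was -0.84. Of the 12 named receptors that fell, 7 were called with all rows tested, 1 with the filter and 6 to 9 with 1 array left out. The sample titles give replicate numbers without saying whether same-numbered arrays of the genotypes belong together. Deviations of the same-numbered arrays correlated at 0.01, 0.05 and -0.17, which with 3 arrays per group cannot settle it. With the replicate number as a block, 14 receptors fell, 10 of them also called without it, and Olfr994 (adjusted p = 0.0439) and Olfr1052 (0.0432) passed. Over all clusters the 316 lower became 168 with that block, 186 with Y-linked signal as covariate and 144 with all rows tested. They became 109 with the filter and 145 to 224 with 1 array left out. In those fits the 24 higher became 13 to 23. With array weights 362 were lower and 31 higher, and with an intensity trend 337 and 23. With quantiles normalized over the annotated clusters 215 were lower and 32 higher, and the median over all clusters was 0.03. Over the marker lists 3 genes were lower with the covariate, 0 with the block and 1 to 5 with 1 array left out, when 0 to 1 were higher, and over the receptor signalling list 1, 0 and 0 to 2 were lower. The difference of Olfr1061 turned to -0.013 with array weights and ran from -0.12 to 0.13 with 1 array left out, and that of Olfr1122 from -0.054 to 0.42. Some alternatives test fewer clusters or arrays, and why the counts differed between alternatives was not tested. No background level per cluster came with the values, and how far low signal limits a difference is unknown.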
